A study of Homo sapiens with 4 samples.

Results

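Metallothioneins are small cysteine-rich proteins that bind zinc and copper, buffer free metal in the cytosol and take up cadmium. Their genes are switched on by metal through MTF1 (metal regulatory transcription factor 1), a zinc finger protein that senses zinc and binds metal response elements in their promoters, and they also respond to glucocorticoids and oxidants. The levels of MT1E, MT1F, MT1X, MT2A and MTF1 were compared between MDA231-BR, a brain metastatic derivative of the human breast cancer line MDA-MB-231, and MDA231-P, the parental line, which is a triple-negative line with mesenchymal features. The 5 genes were taken by name from the deposited RNA-seq table, and all 5 were found among its 15279 named rows. MT1E, MT1F, MT1X and MT2A are the 4 members of a 17-entry metallothionein list with a row in the table, and the other entries were not analysed here.

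Each line had 2 libraries, from cells grown in DMEM with 10% FBS, and the labels give no treatment. The letters A and B follow the order of the table's columns, whose headers give the line and no replicate number. Whether the libraries come from separate cultures is not stated in the labels, and p-values therefore measure the spread between libraries, which may be technical alone. The libraries held 28107820 and 25835225 reads in named genes in MDA231-BR and 30771290 and 27554570 in MDA231-P. In bulk RNA, fewer expressing cells and less RNA per cell cannot be told apart. Markers of a mesenchymal triple-negative line had rows for 7 of 7 genes. VIM and MSN passed as higher in MDA231-BR (28.6%, against 8.61% of all tested genes) and none as lower. Of the 7, 5 were higher and 2 lower by the sign of their difference. Receptors low in such lines, 3 of 4 with a row, summed to 1234 and 1520 in MDA231-BR and 1540 and 1184 in MDA231-P. Melanocytic markers, 2 of 6 with a row, summed to 1826 and 1081 in MDA231-BR and 842 and 925 in MDA231-P. None of the 5 fibroblast markers had a row. The summed value of the immune and endothelial markers, 2 of 6 with a row, was 198 and 218 in MDA231-BR and 71.7 and 150 in MDA231-P. That of the astrocyte and neuron markers, also 2 of 6, was 234 and 298 in MDA231-BR and 70.0 and 94.1 in MDA231-P, with MAP2, a cytoskeletal protein, passing as higher.

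The metallothionein genes lie in 1 cluster on the plus strand of chromosome 16 in the order MT2A, MT1E, MT1F and MT1X, with other genes of the family between them, each with 3 exons, while MTF1 has 11 exons on the minus strand of chromosome 1. The coding sequences are printed because the paralogs can share reads, so that the likeness of the 4 genes sets how far their values can be separated. They come from the GENCODE v29 transcripts, run 5′ to 3′ from the start to the stop codon, and carry capitals at the 29 positions where the 4 genes are not all alike.
MT2A: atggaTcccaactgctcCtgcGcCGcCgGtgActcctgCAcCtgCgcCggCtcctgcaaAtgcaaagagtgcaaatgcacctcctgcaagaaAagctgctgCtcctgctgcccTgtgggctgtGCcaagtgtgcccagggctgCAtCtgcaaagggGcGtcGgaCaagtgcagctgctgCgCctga
MT1E: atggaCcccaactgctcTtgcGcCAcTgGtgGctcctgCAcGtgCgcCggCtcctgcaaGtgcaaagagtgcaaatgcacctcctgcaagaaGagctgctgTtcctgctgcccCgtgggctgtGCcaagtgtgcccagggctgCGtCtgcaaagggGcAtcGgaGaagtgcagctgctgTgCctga
MT1X: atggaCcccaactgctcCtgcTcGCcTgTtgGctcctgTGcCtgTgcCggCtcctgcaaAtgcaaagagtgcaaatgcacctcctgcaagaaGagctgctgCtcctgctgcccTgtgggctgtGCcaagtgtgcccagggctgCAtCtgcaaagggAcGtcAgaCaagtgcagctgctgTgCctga
MT1F: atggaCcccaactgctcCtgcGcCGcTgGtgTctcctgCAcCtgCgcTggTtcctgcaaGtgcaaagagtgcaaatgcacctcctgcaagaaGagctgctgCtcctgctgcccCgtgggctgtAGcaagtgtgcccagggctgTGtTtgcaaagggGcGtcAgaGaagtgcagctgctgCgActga
Of the 186 bases, 157 (84.4%) were shared by all 4 genes. Pairwise identity ranged from 88.7% between MT1F and MT1X to 92.5% for MT1E with MT2A and for MT1X with MT2A, and the longest identical stretch was 63 bases, between MT1X and MT2A. Over the whole transcript, which includes the less alike untranslated ends, 5.34% of the 50-base windows of MT1E, 4.88% of those of MT2A and 3.59% of those of MT1F also occurred in a transcript of another gene. For MT1X the share was 45.1%, the largest of the 5 genes, mostly with AC026461.1, a transcript that overlaps it on the same strand. At a window of 100 bases the share was 0% for MT1E, MT1F and MT2A and 19.1% for MT1X. With neither read length nor strand setting stated, MT1X is the least certain of the metallothionein values, and a part of any paralog's reads may have been assigned to another or dropped. MTF1 has no such paralog, with 0.896% of its 50-base windows shared, but a processed pseudogene, AL929472.4, overlaps it on the opposite strand.

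Promoter sequence from RefSeq (GRCh38.p14) was matched for 3 of the 5 genes, MT2A, MT1X and MTF1. It is shown because MTF1 acts on metallothionein genes through the metal response element, whose core was searched as TGCACNC or TGCGCNC on both strands. The windows hold the 250 bases before the transcription start, and matches to the core stand in capitals.
MT2A, chr16:56608334-56608583, plus strand: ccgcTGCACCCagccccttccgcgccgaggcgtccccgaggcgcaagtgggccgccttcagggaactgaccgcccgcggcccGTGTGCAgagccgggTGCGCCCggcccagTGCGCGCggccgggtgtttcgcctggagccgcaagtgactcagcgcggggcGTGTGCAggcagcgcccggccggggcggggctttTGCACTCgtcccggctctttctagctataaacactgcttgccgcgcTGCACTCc
MT1X, chr16:56682220-56682469, plus strand: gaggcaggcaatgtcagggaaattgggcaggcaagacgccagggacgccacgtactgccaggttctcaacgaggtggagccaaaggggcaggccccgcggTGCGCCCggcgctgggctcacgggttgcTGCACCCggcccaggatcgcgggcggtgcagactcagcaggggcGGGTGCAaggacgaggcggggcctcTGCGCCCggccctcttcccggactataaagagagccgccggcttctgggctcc
MTF1, chr1:37859593-37859842, minus strand: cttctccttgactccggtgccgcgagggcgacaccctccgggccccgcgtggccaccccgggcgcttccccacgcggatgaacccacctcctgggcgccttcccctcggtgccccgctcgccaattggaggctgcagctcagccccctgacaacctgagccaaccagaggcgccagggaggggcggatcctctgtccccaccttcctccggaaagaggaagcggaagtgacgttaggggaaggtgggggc
The MT2A window held 7 matches and the MT1X window 4, while the MTF1 window held none. Among 35116 promoter windows of the same length, 24.8% held at least 1 match, 0.37% held as many as MT1X and 0.0313% held as many as MT2A. TGCACNC was found in 9.87% of the windows and TGCGCNC in 16.8%, each with or without the other form. Both metallothionein windows also held a TATAAA, present in 10.7% of all windows, 2 matches to the GC box GGGCGG, present in 42.6%, and 1 to TGACNNNGC, the core of the antioxidant response element, present in 10.9%. AGAACA, a core motif of the glucocorticoid response element found in 12.4% of windows, had no match in any of the 3. A match describes the letters of the window and not a bound site.

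MT1E fell in MDA231-BR, and it was the 1 member of the 5 that passed the test. MT1E encodes a metallothionein of the MT1 group, which has several gene copies in humans. Its size-factor-normalized read signal was 646 and 628 in MDA231-BR libraries A and B, against 2653 and 3512 in MDA231-P libraries A and B. Both MDA231-BR libraries lay far below both MDA231-P libraries, and the MDA231-BR libraries stood only 1.03-fold apart. The means were 637 ± 12.7 in MDA231-BR and 3083 ± 607 in MDA231-P (SD, n = 2 each). The fitted log2 difference was -2.26 ± 0.24 (SE), a 4.78-fold lower level, with an adjusted p of 0.00141 in limma's test over 14424 genes. Leaving out each library in turn gave differences between -2.46 and -2.06. The fit with all libraries passed the threshold of 0.05. Over the whole table, 14.4% of the tested genes passed, 5.8% as lower and 8.61% as higher in MDA231-BR, and the median log2 difference was 0.01.

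MT2A, the most abundant metallothionein of many human cells, had lower values in MDA231-BR and did not pass the test. Its signal was 5151 and 2909 in MDA231-BR libraries A and B, against 7291 and 8673 in MDA231-P libraries A and B. The lines did not overlap, but the MDA231-BR libraries stood 1.77-fold apart, with library B the lower. The log2 difference was -1.04 ± 0.30 (SE), with a limma p of 0.00822 before adjustment and an adjusted p of 0.0537. Without MDA231-BR library A the difference was -1.45, and without MDA231-BR library B it was -0.63. These fits leave a lone MDA231-BR library and take the spread from MDA231-P alone, so only their effect sizes are given.

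MT1X, another MT1 gene of the cluster, likewise had lower values in MDA231-BR without passing. Its signal was 368 and 286 in MDA231-BR libraries A and B, and 471 and 914 in MDA231-P libraries A and B. The lines did not overlap, and here it was the MDA231-P libraries that stood apart, by 1.94-fold. The log2 difference was -1.01 ± 0.35 (SE), with an adjusted p of 0.0923 in limma's test. The difference was -0.54 without MDA231-P library B and -1.49 without MDA231-P library A. It was -1.19 without MDA231-BR library A and -0.83 without MDA231-BR library B. A lone library has no spread of its own, so each of these fits takes it from the other line.

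MT1F, which lies between MT1E and MT1X, was the least abundant metallothionein and the member whose lines overlapped. Its signal was 112 and 93.3 in MDA231-BR libraries A and B, against 108 and 112 in MDA231-P libraries A and B. MDA231-BR library B was the lowest of the 4, while the highest values of the lines were alike, at 112. The log2 difference was -0.10 ± 0.33 (SE), with an adjusted p of 0.863 in limma's test. Its sign turned, to 0.037, without MDA231-BR library B. Between 88 and 126 reads per library lay behind these values, compared with 2745 to 8941 for MT2A.

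MTF1, the factor that drives metallothionein genes in response to zinc, had higher values in MDA231-BR and did not pass. Its signal was 916 and 1156 in MDA231-BR libraries A and B, against 851 and 599 in MDA231-P libraries A and B. The lowest MDA231-BR value, that of library A, was close to the highest MDA231-P value, also of library A. The log2 difference was 0.53 ± 0.27 (SE), with an adjusted p of 0.226 in limma's test, and it ranged from 0.27 to 0.78 when each library was left out in turn, never past the threshold. These values are of RNA and say nothing of the protein's activity.

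In all, 1 of the 5 genes passed as lower, none as higher and 4 did not pass, against 5.8% lower and 8.61% higher of all tested genes. The libraries of the lines did not overlap for 4 of the 5, a share to be read against the 61.3% of all tested genes for which they did not. MT2P1, a pseudogene of MT2A on chromosome 4 and the other row of the family in the table, had a signal of 159 and 73.1 in MDA231-BR and 244 and 280 in MDA231-P (log2 difference -1.27 ± 0.40, SE, adjusted p = 0.0730 in limma's test). Its reads amounted to 3.09% and 2.51% of those of MT2A in the MDA231-BR libraries and 3.35% and 3.23% in the MDA231-P libraries, and 15.7% of its 50-base windows occur in another gene, mainly MT2A.

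**Figure D1:**
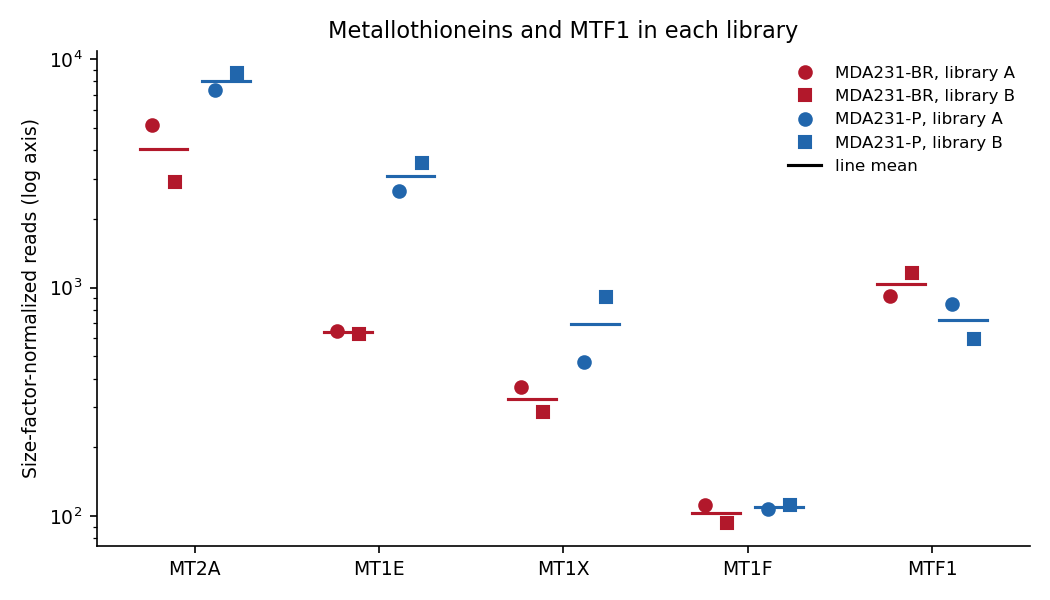
Size-factor-normalized reads of the 5 genes on a log axis, with MDA231-BR in red left of MDA231-P in blue, a circle for library A, a square for library B and a bar for the mean of each line (n = 2). MT1E shows the widest gap between the lines, at 646 and 628 against 2653 and 3512, and the values of MT1F overlap.

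Per length, the order of the levels was the same in both lines. Expressed as RPKM, reads scaled by transcript length and by the library's reads in named genes, MT2A stood at 189 ± 76.1 in MDA231-BR and 383 ± 42.1 in MDA231-P (SD, n = 2 each). MT1E came next, with a level of 33.3 ± 0.995 in MDA231-BR and 165 ± 30.5 in MDA231-P. MT1X followed at 26.8 ± 4.99 in MDA231-BR and 57.9 ± 25.5 in MDA231-P. The last places were held by MT1F, with 5.48 ± 0.775 and 5.99 ± 0.0808 in MDA231-BR and MDA231-P, and MTF1, with 4.78 ± 0.735 and 3.44 ± 0.888. In MDA231-BR the libraries of MT1F and MTF1 overlapped on this scale, and those of MT1E (34.0 and 32.6) lay just above those of MT1X (30.3 and 23.2). In MDA231-P none of the neighbours in the order overlapped, with MT1E at 144 and 187 and MT1X at 39.9 and 76.0.

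The signal of the 4 metallothioneins together was 6277 and 3917 in MDA231-BR libraries A and B and 10523 and 13211 in MDA231-P libraries A and B. The sum depends less on how reads were split between paralogs than the single genes do. Its mean was 5097 ± 1669 in MDA231-BR and 11867 ± 1900 in MDA231-P (SD, n = 2 each), a 2.33-fold lower summed level in MDA231-BR, given without a test. The genes took 0.0233% and 0.0143% of all reads in MDA231-BR, against 0.0401% and 0.0494% in MDA231-P.

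In percentage points, the make-up of the metallothionein reads differed most in MT1E and MT2A. MT1E held 10.3% (95% Wilson interval 9.58 to 11.1) and 16.04% (14.9 to 17.3) of them in MDA231-BR libraries A and B, against 25.2% (24.5 to 26.0) and 26.6% (25.9 to 27.3) in MDA231-P libraries A and B. The intervals cover counting error only, and those of the MDA231-BR libraries do not meet each other. MT2A held 82.1% and 74.3% in MDA231-BR and 69.3% and 65.7% in MDA231-P. For every read of MT2A there were 0.125 and 0.216 reads of MT1E in MDA231-BR, compared with 0.364 and 0.405 in MDA231-P, so MT1E was lower relative to MT2A in both MDA231-BR libraries than in either MDA231-P library. MT1X made up 5.86% and 7.31% in MDA231-BR and 4.48% and 6.92% in MDA231-P, where the lines overlap. MT1F made up 1.79% and 2.38% in MDA231-BR and 1.02% and 0.844% in MDA231-P, the widest difference as a ratio, on few reads.

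**Figure D2:**
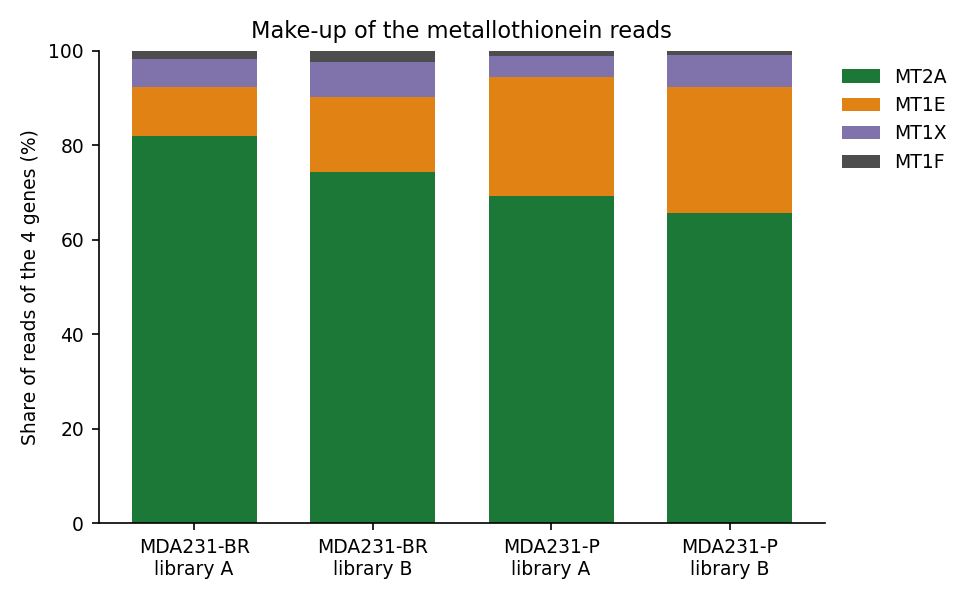
Share of each gene in the reads of the 4 metallothioneins, in percent, for MDA231-BR libraries A and B and then MDA231-P libraries A and B. The MT1E segment spans 10.3% and 16.04% in MDA231-BR and 25.2% and 26.6% in MDA231-P.

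Short transcripts as a class moved with the libraries, and the metallothionein transcripts are short. Among 375 tested genes whose longest coding transcript has up to 1000 bases, the median log2 difference between MDA231-BR and MDA231-P was -0.52, against 0.06 for 11725 genes with a longer one. Within lines the same short genes had a median difference of -0.70 between library B and library A of MDA231-BR, and of 0.53 between library B and library A of MDA231-P. MT2A differed by -0.82 and 0.25 in these contrasts, MT1X by -0.36 and 0.95, MT1F by -0.27 and 0.05, and MT1E by -0.04 and 0.40. MTF1, whose transcript has 7972 bases, ran the other way, at 0.34 and -0.51. With the trend on transcript length removed from each library, a setting added after the data had been seen, MT1E remained past the threshold at -1.81 (adjusted p = 0.000536 in limma's test), MT2A stood at -0.61 (0.0690) and MT1X at -0.49 (0.207). Under the same setting MT1F had the opposite sign, at 0.37 (0.438), and MTF1 stood at 0.36 (0.268).

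MDA231-BR library B also stood apart from the other libraries in genes of other kinds. The summed signal of interferon-stimulated genes was 14735 and 92810 in MDA231-BR libraries A and B and 15742 and 16854 in MDA231-P libraries A and B. Of 16 tested genes 3 (18.8%) passed as higher, against 8.61% of all tested genes. They were OAS1, OAS3 and IRF7, which act in antiviral sensing and the interferon response. Endoplasmic reticulum stress genes summed to 152283 and 470779 in MDA231-BR and 126064 and 121466 in MDA231-P. Of 14 tested, 1 (7.14%, near the 8.61% of all tested genes) passed as higher, CHAC1, a glutathione-degrading enzyme. Nuclear pseudogenes of mitochondrial genes, listed as a sign of RNA quality, summed to 15309 and 48360 in MDA231-BR and 11850 and 12409 in MDA231-P. MTRNR2L8 and MTRNR2L12 passed as higher among 12 (16.7%, against 8.61% of all tested genes). These passing genes stood at 1152 and 1071 (MTRNR2L8) and 1676 and 1965 (MTRNR2L12) in MDA231-BR libraries A and B, so the excess of library B lay in other genes of the list. The part of these differences in the lower MT2A of MDA231-BR library B was not tested, while for MT1E the difference without that library was -2.24.

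**Figure D3:**
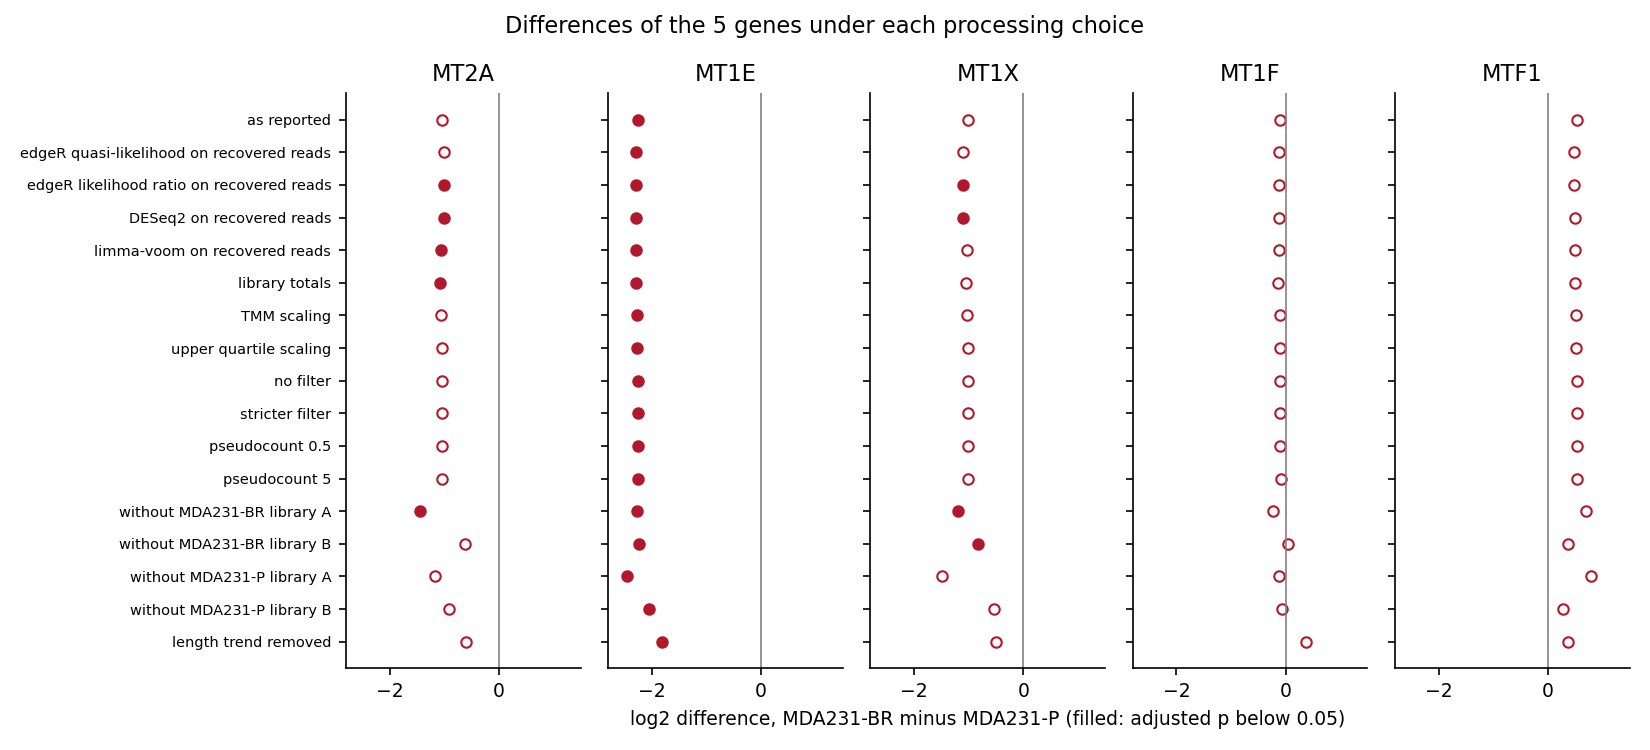
log2 difference of each of the 5 genes under each processing choice, with filled points where the adjusted p was below 0.05. MT1E is filled in every row, and MT2A and MT1X, between -1.49 and -0.49 throughout, have both filled and open points.

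Calls among the zinc transport genes were few. The SLC39 (ZIP) family brings zinc into the cytosol, and of 11 tested members 1 (9.09%) passed as lower and none as higher, a share near the 5.8% lower of all tested genes, with a median log2 difference of 0.07. That member was SLC39A10, an importer at the cell surface whose gene is reported to be repressed by MTF1 in mouse. Its signal was 3023 and 2878 in MDA231-BR libraries A and B, against 5598 and 6557 in MDA231-P libraries A and B. The log2 difference was -1.04 ± 0.22 (SE), with an adjusted p of 0.0193 in limma's test. MDA231-BR lay below MDA231-P in both libraries, with little spread within the lines.

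The SLC30 (ZnT) family moves zinc out of the cytosol. SLC30A1, the exporter at the cell surface and a classical MTF1 target, had a signal of 2123 and 3675 in MDA231-BR and 3042 and 2893 in MDA231-P, so that the MDA231-BR libraries lay on both sides of MDA231-P (log2 difference -0.09 ± 0.29, SE, adjusted p = 0.862 in limma's test). Of 7 tested SLC30 genes, 1 passed as lower, against 5.8% of all tested genes, and none as higher, with a median of -0.31. This was SLC30A3, a vesicular zinc transporter, named after its values were seen, since it was nearly unexpressed at 2.88 and 1.06 in MDA231-BR and 13.7 and 36.9 in MDA231-P. Among 13 tested genes reported as MTF1 targets in mammals, 3 (23.1%) passed as lower and none as higher, against 5.8% and 8.61% of all tested genes, with a median of -0.10. The 3 were MT1E, SLC39A10 and SELENOW, a small selenoprotein, at 514 and 401 in MDA231-BR and 772 and 1474 in MDA231-P (log2 difference -1.23 ± 0.34, SE, adjusted p = 0.0482 in limma's test). The list holds targets that MTF1 activates and SLC39A10, which it represses, so its median has no single direction.

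Copper handling genes had 2 of 13 tested members (15.4%) lower in MDA231-BR, against 5.8% of all tested genes, and none higher, with a median of -0.22. SOD1, the cytosolic copper and zinc superoxide dismutase, had a signal of 3385 and 2115 in MDA231-BR and 6596 and 7788 in MDA231-P (log2 difference -1.42 ± 0.28, SE, adjusted p = 0.0144 in limma's test). SLC31A1, the main copper importer, stood at 2154 and 2134 in MDA231-BR and 3551 and 4055 in MDA231-P (log2 difference -0.82 ± 0.22, SE, adjusted p = 0.0413). Both were lower in each MDA231-BR library than in either MDA231-P library.

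Among 13 tested genes of iron storage and of the cadmium or oxidant response, 3 (23.1%) fell and none rose, against 5.8% lower and 8.61% higher over all tested genes, with a median of -0.29. FTL, the light chain of the iron store ferritin, had a signal of 8980 and 7212 in MDA231-BR and 17765 and 24606 in MDA231-P (log2 difference -1.38 ± 0.25, SE, adjusted p = 0.0116 in limma's test). FTH1, its heavy chain, stood at 859 and 774 in MDA231-BR and 1569 and 1861 in MDA231-P (-1.07 ± 0.23, SE, adjusted p = 0.0225). FTH1 has many processed pseudogenes, so its reads are uncertain. GCLM, the modifier subunit of the enzyme that starts glutathione synthesis, stood at 2124 and 2412 in MDA231-BR and 4677 and 4738 in MDA231-P (log2 difference -1.06 ± 0.22, SE, adjusted p = 0.0176). FTL, SOD1 and SELENOW have transcripts of up to 1000 bases, and with the length trend removed FTL stood at -0.98, SOD1 at -1.05, SELENOW at -0.84 and FTH1 at -0.83, all past the threshold.

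Of 14 tested MTF1 cofactors and other regulators of metallothionein genes, MTF1 among them, 2 (14.3%) passed as higher, against 8.61% of all tested genes. None passed as lower, and the median log2 difference was 0.45. Against the MDA231-P mean, this median was 0.06 in MDA231-BR library A and 0.44 in library B. It was 0.52 without MDA231-P library A and 0.12 without MDA231-P library B. STAT3, a cytokine-activated factor, had a signal of 6028 and 6049 in MDA231-BR and 3318 and 2685 in MDA231-P (log2 difference 1.02 ± 0.22, SE, adjusted p = 0.0225 in limma's test). DAXX, a nuclear co-regulator, stood at 5337 and 4365 in MDA231-BR and 2858 and 2705 in MDA231-P (log2 difference 0.80 ± 0.22, SE, adjusted p = 0.0499). DAXX passed in only 5 of 12 other settings that kept all libraries and STAT3 in 11, and with edgeR's quasi-likelihood test, limma-voom and each other scaling the list had 1 higher gene. Glucocorticoid-responsive genes had 3 of 9 tested members (33.3%) higher, against 8.61% of all tested genes, and none lower, with a median of 0.85. SGK1, a kinase, had a signal of 2359 and 2500 in MDA231-BR and 901 and 819 in MDA231-P (log2 difference 1.499 ± 0.22, SE, adjusted p = 0.00499). PER1, a clock gene, stood at 218 and 217 in MDA231-BR and 99.0 and 95.1 in MDA231-P (1.16 ± 0.30, SE, adjusted p = 0.0390), and TSC22D3, also called GILZ, at 358 and 377 in MDA231-BR and 169 and 198 in MDA231-P (1.00 ± 0.28, SE, adjusted p = 0.0467). Each of the 3 was higher in both MDA231-BR libraries than in either MDA231-P library. Of the 9 tested members 7 had a positive and 2 a negative difference. The part of glucocorticoids in the metallothionein levels was not tested.

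None of the calls in the transport, metal and regulator lists, MT1E apart, passed in the fit without MDA231-P library A or in that without MDA231-P library B, and DAXX was also lost without MDA231-BR library A. In those fits without an MDA231-P library 421 and 429 genes passed over the whole table, compared with 2079 with all 4 libraries, and the lone library of the line was taken to vary like the other line.

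**Figure D4:**
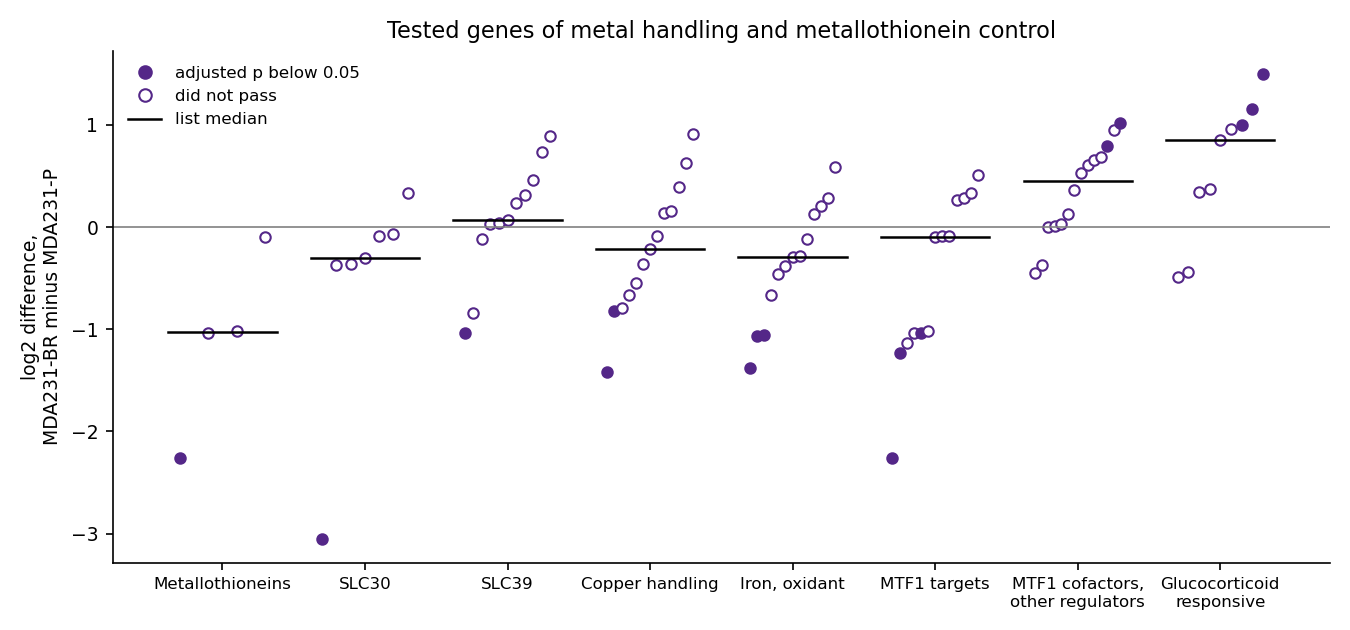
log2 difference of each tested gene by list, filled where the adjusted p was below 0.05, with a line at the list median. The filled points lie below 0 in the metallothionein, transporter, copper, iron and MTF1 target lists and above 0 in the regulator and glucocorticoid lists.

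The neighbours of the cluster on 16q were mostly lower in MDA231-BR too. Of 18 tested flanking genes in a list, 5 passed as lower, none passed as higher and 16 had a negative difference, with a median of -0.43, against 5.8% lower and a median of 0.01 over all genes. Their summed signal was 24791 and 24400 in MDA231-BR and 38554 and 38857 in MDA231-P. NUDT21, a subunit of the factor that chooses polyadenylation sites, stood at 6249 and 5128 in MDA231-BR and 12949 and 13657 in MDA231-P (log2 difference -1.23 ± 0.22, SE, adjusted p = 0.0106 in limma's test). GNAO1, a G protein alpha subunit, stood at 526 and 341 in MDA231-BR and 1099 and 771 in MDA231-P (-1.12 ± 0.31, SE, adjusted p = 0.0488). BBS2, at -0.85, and POLR2C, at -0.99, passed too and are named after their values were seen. MT1E, at -2.26, had a lower difference than each of these 4 genes, but not than every tested gene nearby. CX3CL1, a gene of the list that did not pass, stood at -2.29 ± 1.13 (SE). Its signal was 0.96 in MDA231-BR library A, near the floor, and 31.8 in library B, against 33.3 and 43.7 in MDA231-P. Outside the list, CRNDE stood at -2.26, IRX5 at -3.11 and CNGB1 at -3.23, while the other tested genes near the cluster lay above MT1E. With the length trend removed, the 4 named genes of the list that passed lay between -1.32 and -0.95, all past the threshold. None of the 5 passed without MDA231-P library A or without MDA231-P library B. Copy number was not measured, and the part of the chromosome segment in the level of MT1E was not tested.

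**Figure D5:**
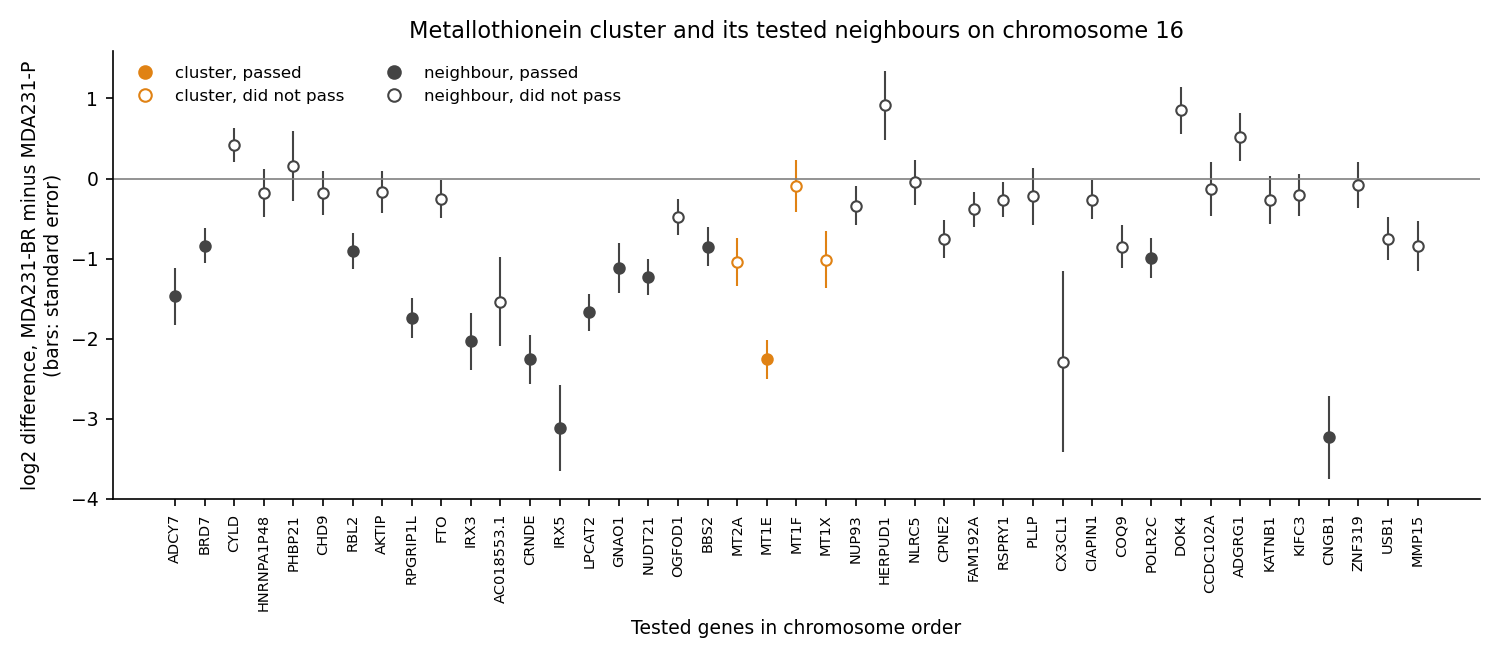
log2 difference between MDA231-BR and MDA231-P, with its standard error, of the 4 metallothioneins and of tested genes up to 20 places away on either side, 1 of them not shown, in chromosome order and filled where the adjusted p was below 0.05. MT1E, at -2.26, lies below its closest tested neighbours MT2A and MT1F, at -1.04 and -0.10, and most of the genes just before the cluster are filled and below 0.

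The genes whose pattern over the 4 libraries was nearest to each member were found by the Euclidean distance of mean-centred log2 values, as a description that rests on 4 points sharing 2 lines. Nearest to MT1E were CD96, SNN and ZNF385B, at distances of 0.16, 0.18 and 0.20, against a median of 2.34 over all other tested genes. SNN had a signal of 104 and 112 in MDA231-BR and 448 and 534 in MDA231-P. Nearest to MT2A were AL445433.1, RPL28, a protein of the large ribosomal subunit, and NME7, with RPL28 at 8408 and 4747 in MDA231-BR and 11281 and 14229 in MDA231-P. MT1X lay nearest to AC026412.1, CIAO2A and AC004453.1, and MT1F to TUFM, ATG3 and DRG1. MTF1 lay nearest to RERE, TNS3 and SOS1, and RERE stood at 1282 and 1626 in MDA231-BR and 1217 and 835 in MDA231-P. No metallothionein was among the 3 genes nearest to another.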

How the data were processed

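RNA-seq of total RNA isolated with a mirVana kit was analysed from 2 libraries of each line. HISAT2, featureCounts and DESeq2 are listed in the submitters' processing notes with GRCh37, while kit, read length, annotation and strand setting are not given in the sources consulted. The authors' deposited values are a read signal divided by size factors, judged from the values. They are whole multiples of a step, and dividing by the step gave whole reads for 100% of values within 0.01 reads. Of 15346 rows, 67 without a name (0.031% to 0.0369% of reads) were left out. Column headers name the line only. The pairs were not copies of each other (chi-square per degree of freedom 124 in MDA231-BR and 61.7 in MDA231-P).

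The filter was filterByExpr of edgeR on these reads (count 10, total 15), and 14424 genes were tested. The main test was limma-trend on log2(value + 1), a scale that understates changes of low genes, with Benjamini-Hochberg adjustment over all tested genes and a threshold of 0.05. Alternatives were DESeq2, limma-voom and edgeR's quasi-likelihood (2228 genes) and likelihood ratio tests on these reads, changed scalings, filters or pseudocounts, leaving out each library, and, added later, removal of a lowess trend (span 0.1) on the length of the longest transcript, known for 99.6% of tested genes. Scripts were tested on simulated data. Members and gene lists were chosen with earlier results of these data known. Named genes were the members, MT2P1, SLC30A1, SLC39A10, in each list up to 3 passing genes with the largest rise and fall at a mean of 50 or more, and the 3 genes nearest each member. A gene among the 16q neighbours is not reported here by name. Transcripts, lengths and gene order were matched by symbol to GENCODE v29, which is on GRCh38, so no gene coordinates are given. Versions were Python 3.11.15, DESeq2 1.42.0, edgeR 4.0.16, limma 3.58.1 and R 4.3.3.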

Additional observations from a re-analysis of the deposited data

How the results depend on the processing

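MT1E kept its direction and its side of the threshold under all 16 alternatives run. No paired analysis was possible because the columns carry no replicate numbers. The count of genes past the threshold, 2079, was 3196 with edgeR's likelihood ratio test and 586 with no filter, and 421 to 5257 when each library was left out. MT2A, at -1.04 in the reported fit, passed with the likelihood ratio test (-1.01, adjusted p = 0.0167), DESeq2 (-1.01, 0.0124), limma-voom (-1.06, 0.0455) and scaling by library totals (-1.08, 0.0422), but not with edgeR's quasi-likelihood test (adjusted p = 0.0556), and ranged from -1.45 to -0.63 without each library. MT1X passed with the likelihood ratio test (-1.10, adjusted p = 0.0249) and DESeq2 (-1.11, 0.0208) and ranged from -1.49 to -0.54 without each library. MT1F, far from the threshold in each fit, turned sign to 0.037 without MDA231-BR library B and to 0.37 with the length trend removed, and ranged from -0.23 to 0.037 without each library. MTF1 kept its sign and did not pass in any fit. The summed metallothionein level, a log2 ratio of -1.22, ranged from -1.60 to -0.92 without each library. Over the 12 lists, 11 of 135 tested genes were higher and 14 lower, against 8.61% higher and 5.8% lower of all tested genes. With the likelihood ratio test 27 were higher, with DESeq2 23, with the length trend removed 21 and with no filter 1, against 2 lower with no filter. Without each library, 1 to 46 were higher and 1 to 25 lower. Per transcript length, the share of MT1E in MDA231-P was 26.9%, that of MT1X 10.8% in MDA231-BR and 9.25% in MDA231-P, and that of MT2A 62.8% in MDA231-P. These shifts per length follow from dividing reads by transcript length, 450 bases for MT1X and 690 to 786 for the other metallothioneins. The cause of the other shifts was not tested. With 2 libraries a line and 88 to 126 reads for MT1F, the precision for MT1F is limited by counting as well as by the spread between libraries.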

Other observations

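Beyond the listed neighbours, tested genes in chromosome order on either side of the metallothionein cluster were taken in windows of 10, chosen after the values had been seen. The 10 genes before the cluster had a median log2 difference of -1.45, and 8 of them passed as lower in MDA231-BR. The 10 genes after it had a median of -0.30, and none passed. The next 10 before the cluster had a median of -0.22 with 4 lower, and the next 10 after it -0.24 with 2 lower. Farther out, genes 21 to 30 had a median of -0.13 before and -0.43 after the cluster, and none of them passed as lower. Genes 31 to 40 had -0.20 with none lower before it and -1.23 with 3 lower after it. Over all tested genes the median was 0.01, and 5.8% passed as lower. Over the 495 tested genes of chromosome 16 outside 40 genes on either side and the cluster itself, the median was -0.09, with 22 lower and 14 higher. Among the 10 genes before the cluster were IRX5 and IRX3, homeobox factors, the long noncoding RNA CRNDE, and LPCAT2, which makes phosphatidylcholine. IRX3 had a signal of 54.7 and 95.4 in MDA231-BR and 321 and 279 in MDA231-P, a log2 difference of -2.04 ± 0.36 (SE, adjusted p = 0.01002 in limma's test). CRNDE stood at 149 and 188 in MDA231-BR and 664 and 973 in MDA231-P (-2.26 ± 0.30, SE, adjusted p = 0.00335). LPCAT2 stood at 604 and 571 in MDA231-BR and 1802 and 1945 in MDA231-P (-1.67 ± 0.23, SE, adjusted p = 0.00359). IRX5 was at 3.84 and 4.24 in MDA231-BR and 50.3 and 35.9 in MDA231-P (-3.11 ± 0.54, SE, adjusted p = 0.00893).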
